A study of Homo sapiens with 9 samples.

Results

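The 9 genes described here encode receptor chains, kinases and transcription factors of interferon signalling: the receptor chains IFNAR1 and IFNAR2, the kinases JAK1, JAK2 and TYK2, and the transcription factors STAT2, IRF1, IRF7 and IRF9. They were taken by name from the 61544 genes listed in the deposited tables, and all 9 passed the filter on low counts that kept 14727 genes for testing. RNA was measured in HMC3, a human cell line described as immortalized microglia and wild-type apart from its immortalization, with 3 libraries in each of 3 groups. The paper states that SV40T transfection immortalized the line and that this method disrupts the p53 and Rb pathways. VEH cells received only the solvent DMSO, SLO cells 10 µM SBI-0206965, 1 µM O-151 and 1 µM Lopinavir, and SLO ½ cells 5, 0.5 and 0.5 µM of the same compounds, all for 6 days. SBI-0206965 inhibits the autophagy kinase ULK1, O-151 a glycosylase that removes oxidized guanine from DNA, and Lopinavir is an HIV protease inhibitor that also disturbs lamin A processing. No interferon was added in these 3 groups, so the values describe cells at rest or under the cocktail alone.

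Type I interferons bind a receptor made of IFNAR1 and IFNAR2, whose intracellular parts carry the kinases TYK2 and JAK1. The kinases phosphorylate STAT proteins, among them STAT2, which joins IRF9 in the complex ISGF3, and this complex binds interferon-stimulated response elements (ISRE) in the promoters of its target genes. Interferon-gamma instead acts through its own receptor, JAK1 and JAK2, and STAT dimers that bind gamma-activated sites (GAS). IRF1 and IRF7 are themselves transcription factors induced by these pathways, IRF7 being the factor that amplifies interferon-alpha production and IRF1 a regulator of antigen presentation genes. In microglia this system is known for its part in antiviral defence and in the response of the aging brain.

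To show which of these elements lie at the genes themselves, 300-base promoter windows from RefSeq (GRCh38.p14; 250 bases before to 50 after the start) were searched on both strands for the GAS letters TTCNNNGAA and the ISRE core GAAANNGAAA. Windows were found for 7 of the 9 genes (13 windows, since some genes have several starts). IFNAR2 and IRF7 had no window and were not searched. None of the 7 held the ISRE core, which 4.38% of the 27305 genes with a window held. IRF1 and IRF9 held the GAS letters, found in 9.38% of genes. The stretches around both matches are shown because they are the only matches in the windows of these 7 genes, on the strand of the gene, with the matched letters in capitals:
IRF1, chr5:132490879-132490907, minus strand, beginning of the match 124 bases before the start: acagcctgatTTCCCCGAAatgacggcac
IRF9, chr14:24161192-24161220, plus strand, 63 bases before the start: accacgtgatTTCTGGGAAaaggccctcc

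Among target genes of the pathway, the ISRE core was found in 21 of 27 ISGF3 target genes with a window (77.8%). It was also found in 11 of 14 interferon-gamma and IRF1 target genes (78.6%). The GAS letters were found in 8 of the 27 (29.6%) and 7 of the 14 (50%). Stretches of 4 targets whose values are given further on are shown for comparison, with the ISRE core in capitals. In IFIT1, IFIT3 and GBP1 the core lies on the opposite strand and reads TTTCNNTTTC. Matches overlapped each other in ISG15, where 2 cores share letters, and the printed match is 1 of 2 in IFIT1 and 1 of 4 in IFIT3.
ISG15, chr1:1013380-1013409, plus strand, 107 bases before the start: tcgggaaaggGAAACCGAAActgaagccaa
IFIT1, chr10:89392497-89392526, plus strand, 116 bases before the start: ctagctttagTTTCACTTTCccctttcggt
IFIT3, chr10:89332425-89332454, plus strand, 94 bases before the start: acagattctgTTTCAGTTTCccctcaagag
GBP1, chr1:89065316-89065345, minus strand, 127 bases before the start: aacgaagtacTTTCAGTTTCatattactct
A match describes letters in these windows only and shows no binding.

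The libraries held 14834295 to 19674841 reads assigned to genes. Values are CPM, the counts of a gene relative to its library size as scaled by TMM factors of edgeR, and differences are log2 fold changes with standard errors (SE) from edgeR's quasi-likelihood test fitted to all 9 libraries, adjusted by the Benjamini-Hochberg method over the 14727 tested genes and called below 0.05. Nothing in the labels says that the replicates were separate cultures, so these p-values measure the spread between libraries, which may be technical. In bulk RNA, fewer cells of one kind and less RNA per cell cannot be told apart. The cell type was checked against marker lists: of 12 microglia markers, P2RY12 and TYROBP had 0 counts in every library, and AIF1, TMEM119, CX3CR1, PTPRC, SALL1 and SPI1 had at most 2 counts in any. TREM2, a receptor of microglia and macrophages, was the most abundant by TPM (the deposited unit scaled to gene length and library size) with 4 to 20 counts, and the list's summed level was 1.46 to 2.52 TPM in VEH, while SLO ½ held 4.11 to 6.31 and SLO 4.80 to 5.13. Mesenchymal markers, led by fibronectin (FN1), summed to 8772 to 9802 TPM in VEH, while SLO ½ held 7779 to 8193 and SLO 6880 to 7121. Of 8 mesenchymal markers tested, 4 rose and 3 fell in SLO, where 32.9% and 32.1% of all tested genes did. Neuron markers summed to 7.42 to 7.69 TPM in VEH, while SLO ½ held 12.0 to 12.3 and SLO 15.1 to 17.2, with SNAP25 the most abundant by CPM, and astrocyte markers to 3.80 to 5.19, 7.52 to 7.59 and 8.88 to 9.35 TPM, with AQP4 at 0 counts. The levels of these lists moved with the groups, and their part in the differences given below was not tested.

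Most of the 9 genes rose with the cocktail, and those highest in SLO were not those highest in SLO ½. In SLO, 8 of 9 were called higher than in VEH, all but IRF9, and none lower. Across all tested genes 64.9% were called in this comparison, 32.9% higher and 32.1% lower. In SLO ½, 5 of 9 were called higher than in VEH and none lower, against 26.7% higher and 25.3% lower among all tested genes (52.0% in all). Between the doses, 5 genes were higher in SLO (both receptor chains and all 3 kinases), 2 were higher in SLO ½ (IRF7 and IRF9) and 2 were not called (STAT2 and IRF1). Of all tested genes 41.1% were called between the doses, 20.8% higher in SLO and 20.3% lower. The median log2 fold change of the 9 genes was 0.31 in SLO and 0.44 in SLO ½ against VEH, where that of all tested genes was 0.01 and 0.02. The libraries of SLO and VEH did not overlap for 8 of the 9 genes (66.7% of all tested genes), those of SLO ½ and VEH for 6 (58.3%), and those of the doses for 8 (51.0%), so separation between groups was common among all genes.

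**Figure D1:**
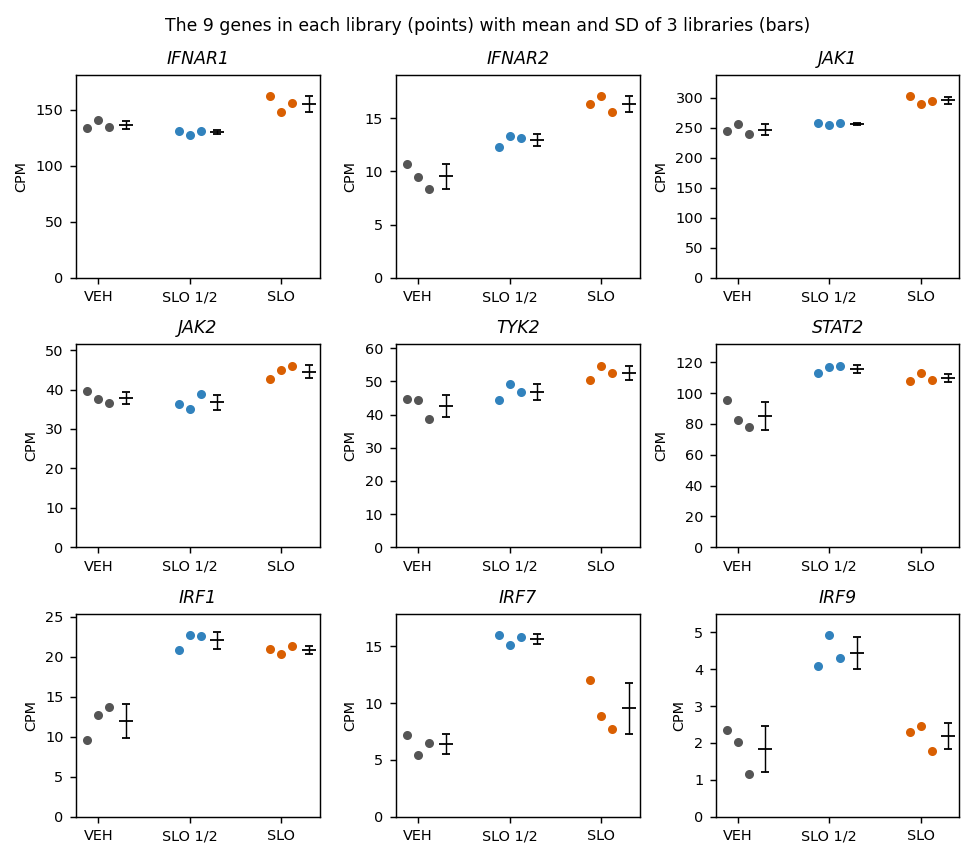
CPM (vertical axes, from 0) of each of the 9 genes in the 3 libraries of VEH, SLO ½ and SLO; points are libraries and bars the mean with SD. The receptor chains and kinases are highest in SLO, STAT2 and IRF1 are above VEH in both doses, and IRF7 and IRF9 are highest in SLO ½.

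IFNAR1 (ENSG00000142166.13, chr21:33324429-33359864, plus strand, GRCh38), the chain that carries TYK2, was abundant in all groups. Its CPM was 134, 141 and 135 in VEH, 131, 128 and 131 in SLO ½, and 162, 148 and 156 in SLO. All 3 SLO libraries lay above the others, and those of SLO ½ lay just below VEH. The level in SLO was 1.14-fold that in VEH (log2 fold change 0.19, SE 0.042, adjusted p = 0.00028) and 1.20-fold that in SLO ½ (0.26, SE 0.042, adjusted p = 1.2e-05). SLO ½ against VEH gave −0.07 (95% interval −0.16 to 0.017, adjusted p = 0.170), an interval that lies below the rise in SLO.

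IFNAR2 (ENSG00000159110.21, chr21:33205282-33265675, plus strand), the chain that carries JAK1, rose at each dose. Its CPM was 10.7, 9.52 and 8.36 in VEH, 12.3, 13.3 and 13.2 in SLO ½, and 16.3, 17.1 and 15.6 in SLO. No library of one group overlapped with another group. The rise was 1.36-fold in SLO ½ (log2 0.45, SE 0.098, adjusted p = 0.00034) and 1.72-fold in SLO (0.79, SE 0.096, adjusted p = 3.0e-08), and SLO exceeded SLO ½ by 0.34 (SE 0.090, adjusted p = 0.0032). In the GENCODE v44 annotation, 86.0% of IFNAR2's coding bases are shared on the same strand with a read-through gene that joins it to IL10RB (ENSG00000249624.10). STAR assigns a read that falls in 2 genes to neither, so the count of IFNAR2 comes from its remaining parts and its level relative to IFNAR1 is uncertain. The read-through gene itself had 0 to 6 counts per library.

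JAK1 (ENSG00000162434.13, chr1:64833229-65067754, minus strand), the kinase shared by the receptors for both types of interferon, had the highest CPM of the 9 genes. Its CPM was 244, 256 and 239 in VEH, 257, 254 and 257 in SLO ½, and 302, 289 and 294 in SLO. SLO libraries stood apart, while those of VEH and SLO ½ overlapped. SLO exceeded VEH 1.20-fold (log2 0.26, SE 0.039, adjusted p = 1.1e-06) and SLO ½ 1.15-fold (0.21, SE 0.039, adjusted p = 8.8e-05). The difference of SLO ½ from VEH was 0.06 (95% interval −0.025 to 0.14, adjusted p = 0.248).

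JAK2 (ENSG00000096968.14, chr9:4984390-5129948, plus strand), the kinase of the interferon-gamma receptor and of many cytokine receptors, was likewise highest in SLO. Its CPM was 39.6, 37.5 and 36.5 in VEH, 36.4, 35.1 and 38.8 in SLO ½, and 42.7, 44.97 and 46.0 in SLO. Only the SLO libraries were separate from the rest. The log2 fold change was 0.24 in SLO against VEH (SE 0.058, adjusted p = 0.00075) and 0.28 against SLO ½ (SE 0.058, adjusted p = 0.00028). In SLO ½ against VEH it was −0.04, with a 95% interval of −0.16 to 0.080 and an adjusted p of 0.589.

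TYK2 (ENSG00000105397.14, chr19:10350529-10380572, minus strand), the kinase bound to IFNAR1, lay between. Its CPM was 44.8, 44.2 and 38.8 in VEH, 44.3, 49.1 and 46.9 in SLO ½, and 50.5, 54.7 and 52.5 in SLO. The SLO libraries lay above both other groups, which overlapped. SLO exceeded VEH 1.24-fold (log2 0.31, SE 0.060, adjusted p = 4.8e-05). Both steps of the dose were near the threshold. SLO ½ against VEH gave 0.14 (SE 0.060, adjusted p = 0.0514), a difference that was called under 7 of 19 alternatives, including those without VEH replicate 1 (0.18), VEH replicate 2 (0.17) or SLO ½ replicate 1 (0.18). SLO against SLO ½ gave 0.17 (SE 0.059, adjusted p = 0.0218), a call lost under 5 of 19. It was lost without SLO ½ replicate 1 (0.13, adjusted p = 0.127), SLO ½ replicate 3 (0.17, adjusted p = 0.0517) and likewise without SLO replicate 2 (0.14, with 0.102 as adjusted p). Without SLO replicate 3 it was 0.17 and not called (adjusted p = 0.0532). Over the 19 alternatives the adjusted p ran from 0.01002 to 0.461 for SLO ½ against VEH and from 0.0101 to 0.127 between the doses.

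**Figure D2:**
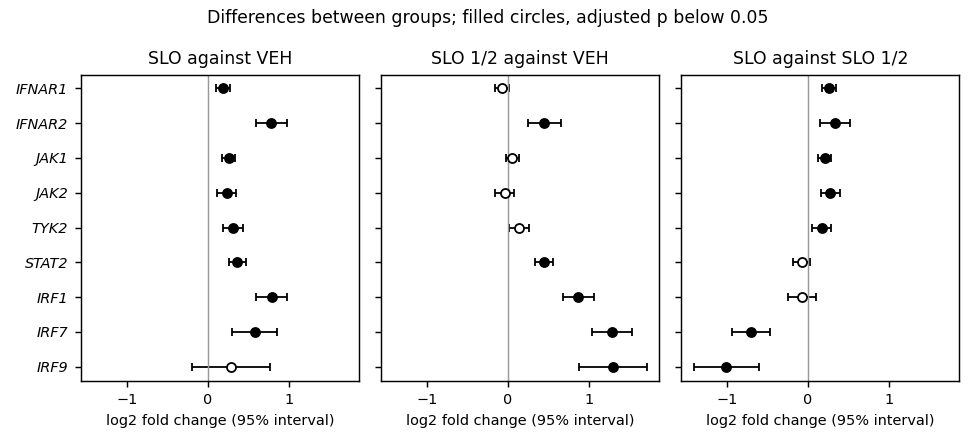
Log2 fold change (horizontal axes) of each gene in SLO against VEH, SLO ½ against VEH and SLO against SLO ½, with 95% intervals; filled circles have an adjusted p below 0.05. The receptor chains and kinases lie right of 0 between the doses, whereas IRF7 (−0.71) and IRF9 (−1.01) lie left of it.

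STAT2 (ENSG00000170581.14, chr12:56341597-56360167, minus strand), a subunit of ISGF3, rose at both doses. Its CPM was 95.4, 82.5 and 78.1 in VEH, 113, 117 and 118 in SLO ½, and 108, 113 and 109 in SLO. All treated libraries lay above all VEH libraries. The rise was 1.36-fold in SLO ½ (log2 0.44, SE 0.053, adjusted p = 4.2e-08) and 1.29-fold in SLO (0.37, SE 0.053, adjusted p = 6.7e-07). The doses differed by −0.08, SLO being lower, with a 95% interval of −0.18 to 0.029 (adjusted p = 0.246), so a difference of up to that size was not excluded.

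IRF1 (ENSG00000125347.15, chr5:132440440-132508719, minus strand) rose further in relative terms. Its CPM was 9.59, 12.7 and 13.7 in VEH, 20.8, 22.7 and 22.6 in SLO ½, and 21.0, 20.4 and 21.3 in SLO. Treated libraries were all above VEH, and those of the doses overlapped. The level was 1.83-fold that of VEH in SLO ½ (log2 0.87, SE 0.092, adjusted p = 5.6e-09) and 1.73-fold in SLO (0.79, SE 0.094, adjusted p = 2.0e-08). Between the doses the difference was −0.08 (95% interval −0.25 to 0.096, adjusted p = 0.493). The span given for IRF1 overlaps the antisense gene IRF1-AS1, with 22.9% of IRF1's exon bases shared across strands, though the table is labelled as counted by strand.

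IRF7 (ENSG00000185507.21, chr11:612553-615983, minus strand), the factor that drives interferon-alpha genes, was highest in SLO ½. Its CPM was 7.17, 5.45 and 6.53 in VEH, 15.95, 15.1 and 15.8 in SLO ½, and 12.0, 8.89 and 7.71 in SLO. The groups did not overlap, with SLO between VEH and SLO ½ and the widest spread of the 3. SLO ½ exceeded VEH 2.44-fold (log2 1.29, SE 0.12, adjusted p = 6.8e-10) and SLO exceeded VEH 1.49-fold (0.58, SE 0.13, adjusted p = 0.00043). SLO was lower than SLO ½ by −0.71 (SE 0.11, adjusted p = 1.1e-05). The rise in SLO leaned on 1 library, since without SLO replicate 1 it was 0.38 (adjusted p = 0.0151).

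IRF9 (ENSG00000213928.9, chr14:24161265-24166565, plus strand), which gives ISGF3 its DNA binding, was the least abundant of the 9. Its counts were 37, 31 and 22 in VEH, 72, 86 and 72 in SLO ½, and 38, 42 and 27 in SLO, which is 2.35, 2.04 and 1.15 CPM, 4.09, 4.92 and 4.31 CPM, and 2.30, 2.47 and 1.80 CPM. The SLO ½ libraries stood above all others, and those of SLO and VEH overlapped. SLO ½ exceeded VEH 2.46-fold (log2 1.30, SE 0.20, adjusted p = 4.0e-06), and SLO was lower than SLO ½ by −1.01 (SE 0.20, adjusted p = 0.00012). SLO against VEH gave 0.29 with a 95% interval of −0.19 to 0.77 (adjusted p = 0.290). These few counts come from part of the gene, because 87.4% of its coding bases are shared on the same strand with a read-through gene (ENSG00000259529.2) that had 8 to 23 counts per library. The level of IRF9 is therefore uncertain, and the difference between groups is that of its remaining parts.

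Levels can be compared between genes only per length, for which the deposited TPM were used. In VEH the order was IFNAR1 (93.4 ± 3.01 TPM, mean ± SD, n = 3), JAK1 (91.8 ± 3.46), STAT2 (64.8 ± 6.41), TYK2 (30.0 ± 2.25), JAK2 (22.5 ± 0.808), IRF7 (11.5 ± 1.51), IFNAR2 (9.12 ± 1.08), IRF1 (4.61 ± 0.849) and IRF9 (2.42 ± 0.807). Neighbours overlapped for IFNAR1 with JAK1 and for IRF7 with IFNAR2, and the other neighbours did not. In SLO ½ STAT2 (85.4 ± 2.01) reached the level of IFNAR1 (86.4 ± 2.51), with overlapping libraries, and IRF7 (27.3 ± 1.21) stood above JAK2 (21.3 ± 1.37). In SLO the order was again close to that of VEH, with JAK1 (109 ± 2.53) and IFNAR1 (106 ± 4.87) overlapping at the top and JAK2 (26.4 ± 0.965) above IRF7 (17.1 ± 3.97). The receptor chain IFNAR2 rose to 12.0 ± 0.438 in SLO ½ and 15.5 ± 0.716 in SLO. The positions of IFNAR2 and IRF9 are bound to the shared exons described above. The position of IRF1 is bound to the length it was divided by, which is not given here. By mean CPM in VEH, IRF1 (12.0) stood above IFNAR2 (9.54) and IRF7 (6.38). GENCODE v44 gives IRF1 12265 exon bases with 1083 coding bases, and IRF7 2612 exon bases. Whether IRF1 is less abundant than IRF7 or IFNAR2 is therefore uncertain.

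**Figure D3:**
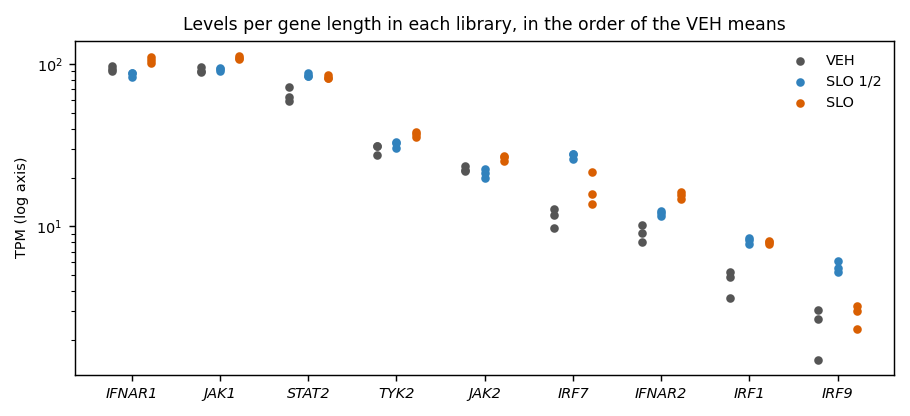
TPM (log axis) of the 9 genes in each library, with VEH, SLO ½ and SLO side by side and genes in the order of the VEH means. IFNAR1 and JAK1 are at the top in VEH at 93.4 and 91.8 TPM and IRF9 is at the bottom at 2.42, and IRF7 stands above JAK2 only in SLO ½.

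The genes with the most similar pattern were found by the root mean square difference of log2 CPM, centred on each gene's mean, over the 9 libraries. The 2 closest tested genes were DDX60L (0.14) and PLSCR1 (0.16) for IRF7, and IFI35 (0.20) and REC8 (0.20) for IRF9. DDX60L, PLSCR1 and IFI35 are known as interferon-induced genes. The patterns of IRF7 and IRF9 had no tested gene within 0.1, whereas IRF1 had 4, IFNAR2 71, STAT2 83, TYK2 504, JAK2 608, IFNAR1 846 and JAK1 1086. For IRF1 the closest were PLCXD2 (0.091) and SHISA2 (0.092), for STAT2 METTL22 (0.042) and SEMA3B (0.051), and for IFNAR2 LRATD2 (0.061) and LAMB2 (0.061). The closest to IFNAR1 were SPPL2A (0.030) and GOLM1 (0.031), to JAK1 CIAO1 (0.025) and RASSF8 (0.028), to JAK2 PARVA (0.042) and E2F7 (0.042), and to TYK2 ARIH2 (0.041) and RCCD1 (0.043). A gene that varies little is near to many others by this measure, so the counts are a description of the patterns. Among the 9 genes themselves, IFNAR1 and JAK1 lay 0.055 apart and IRF7 and IRF9 0.32, while IFNAR1 and IRF9 lay 0.67 apart.

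Ligands of the pathway were close to absent from the RNA. Of 22 interferon genes, 19 had 0 counts in all 9 libraries, among them every interferon-alpha gene listed and interferon-gamma. A count of 0 allows up to 3 counts per library, or 0.152 to 0.202 CPM before scaling. IFNB1, the fibroblast interferon gene, had 0 counts in each VEH library, 6, 2 and 1 in SLO ½ and 1, 1 and 2 in SLO. IFNE had 0 to 12 counts and IFNL1 a single count in 1 SLO ½ library. None of the 3 passed the filter for testing, and with no expression filter 1 ligand gene was called in SLO ½ and none in SLO. Secreted protein was not measured in these files.

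Of the other receptor chains, IFNGR1, the ligand-binding chain for interferon-gamma, rose at each dose. Its CPM was 28.8, 29.1 and 28.7 in VEH, 45.4, 45.1 and 42.3 in SLO ½, and 54.2, 49.97 and 54.0 in SLO. The groups were fully separate, with log2 fold changes of 0.62 in SLO ½ (SE 0.058, adjusted p = 5.0e-10) and 0.87 in SLO (SE 0.057, adjusted p = 8.5e-14). Its partner IFNGR2 gave 0.00 and 0.09 (adjusted p = 0.97 and 0.13). IFNLR1 gave −0.37 and −0.39 (adjusted p = 0.16 and 0.12), and IL10RB 0.27 and 0.37 (adjusted p = 0.16 and 0.044). The number of these 4 chains called in SLO was 2, where 64.9% of all tested genes were called. That number was 1 under 10 of the 19 alternatives and 3 with library size alone as scaling and without SLO replicate 3. IL10RB also overlaps the read-through gene.

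Among 6 other JAK and STAT genes, 4 rose in SLO and 4 in SLO ½, and none fell. Of all tested genes 32.9% rose in SLO and 26.7% in SLO ½, while 32.1% and 25.3% fell. STAT3, the main factor of interleukin-6 signalling, rose by 0.38 in SLO ½ and 0.60 in SLO. Like the kinases it had its larger value in SLO, but JAK1, JAK2 and TYK2 were not called in SLO ½. STAT5B rose in SLO (0.39, adjusted p = 1.2e-07), with 0.03 in SLO ½ (adjusted p = 0.61), and the doses differed by 0.35 (adjusted p = 1.6e-06). STAT6 rose in SLO ½ (0.32, adjusted p = 9.0e-05), with 0.06 in SLO (adjusted p = 0.44), and SLO was lower than SLO ½ by −0.26 (adjusted p = 0.0012). STAT4 and STAT5A rose at both doses from low counts (at most 24 in any library), and JAK3 was not called (0.07 in SLO and −0.17 in SLO ½).

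Neither of the other IRF genes tested was called against VEH. IRF3, which is activated by phosphorylation rather than by new RNA, had 25.9 to 28.3 CPM in VEH, while SLO ½ held 27.9 to 28.6 and SLO 23.9 to 29.4, with log2 fold changes of −0.03 in SLO and 0.04 in SLO ½ (adjusted p = 0.72 and 0.64). IRF2, a repressor of IRF1 targets, gave −0.08 and 0.17 (adjusted p = 0.40 and 0.055), and was lower in SLO than in SLO ½ by −0.25 (adjusted p = 0.0094). IRF4, IRF5 and IRF8 had at most 12 counts in any library and did not pass the filter, but they were tested with no expression filter. They belong to the same list of 5 genes. Under 12 of 19 alternatives 1 or 2 of the 5 were called higher in SLO ½. Under 9 of 19 a single one of the 5 was called higher in SLO, and which gene it was is not given here.

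Sensors and adaptors upstream of the IRF factors rose more often than not. Of 10, 6 rose and 2 fell in SLO and 8 rose and 1 fell in SLO ½. The shares of all tested genes were 32.9% higher and 32.1% lower in SLO, and 26.7% and 25.3% in SLO ½. STING1, the adaptor for cytosolic DNA, had 12.1 to 13.8 CPM in VEH, while SLO ½ held 32.8 to 34.1 and SLO 36.5 to 40.3, log2 fold changes of 1.34 and 1.54 (adjusted p = 3.0e-15 and 3.1e-17). CGAS, the DNA sensor that feeds it, rose by 0.38 and 0.26, and the kinase TBK1, which phosphorylates IRF3 and IRF7, by 0.18 and 0.23. MYD88 (0.89 and 0.38) and TRAF3 (0.26, and 0.06 in SLO with adjusted p = 0.35) were higher in SLO ½ than in SLO (−0.50 and −0.21 between the doses, adjusted p = 0.00040 and 0.0018). TICAM1 rose by 0.33 and 0.35, and IRAK1, a kinase downstream of MYD88, fell by 0.37 in SLO (−0.01 in SLO ½, adjusted p = 0.91; difference between the doses −0.37, adjusted p = 6.8e-08).

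Of 16 negative regulators tested, 5 rose (31.2%) and 7 fell (43.8%) in SLO, where 32.9% and 32.1% of all tested genes did. In SLO ½ 3 rose and 4 fell, against 26.7% and 25.3% of all tested genes, and nothing is read from these counts about the list. USP18, which binds IFNAR2 and blocks the receptor, had 1.397, 0.525 and 1.25 CPM in VEH, 8.86, 7.15 and 8.87 in SLO ½, and 2.91, 2.41 and 3.06 in SLO. It thus shared the order of IRF7 and IRF9, with 2.94 in SLO ½ (SE 0.20, adjusted p = 6.4e-13), 1.36 in SLO (SE 0.25, adjusted p = 2.4e-05) and −1.57 between the doses (adjusted p = 8.2e-09). SOCS3, an inhibitor of JAK kinases, fell by 0.34 in SLO ½ and by 0.54 in SLO. PIAS1, an inhibitor of STAT factors, fell by 0.35 and 0.43, and the phosphatase gene PTPN11 by 0.33 and 0.37. PTPN1, whose phosphatase acts on JAK2 and TYK2, rose by 0.25 and 0.26, and IRF2BP2 rose by 0.31 in SLO (−0.02 in SLO ½, adjusted p = 0.71).

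**Figure D4:**
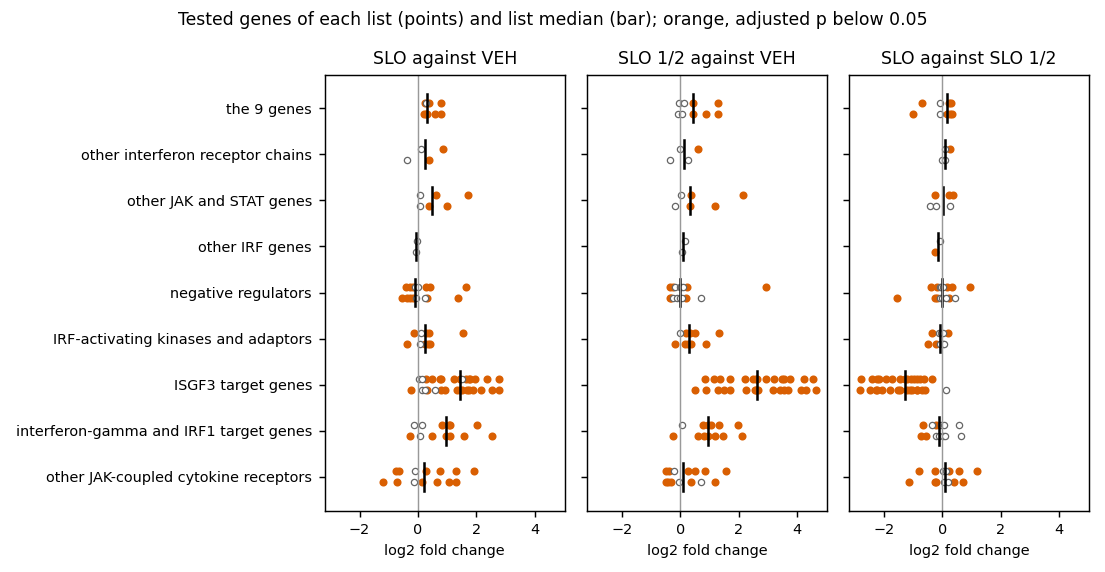
Log2 fold change (horizontal axes) of each tested gene of the pathway lists in SLO against VEH, SLO ½ against VEH and SLO against SLO ½; orange points have an adjusted p below 0.05 and bars are list medians. ISGF3 target genes lie right of 0 against VEH and left of it, with a median of −1.26, between the doses.

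Target genes of ISGF3 were highest in SLO ½, like IRF7 and IRF9. Of 34 found in the tables (RIGI under its older symbol DDX58), 32 were tested (CMPK2 and ZBP1 had 0 counts in every library). All 32 rose in SLO ½ with a median of 2.63 and a range of 0.50 to 4.66, where 26.7% of all tested genes rose. In SLO 25 rose, 6 were not called and 1 fell (DTX3L, −0.25, named after its value was seen), with a median of 1.42. Of all tested genes 32.9% rose and 32.1% fell in SLO. Between the doses 31 were lower in SLO, with a median of −1.26, and the exception was TRIM22 (0.13, adjusted p = 0.077). Among all tested genes 20.3% were lower in SLO than in SLO ½. IFIT1 had 14.2, 7.55 and 6.999 CPM in VEH, 105, 92.3 and 108 in SLO ½, and 26.8, 20.5 and 19.9 in SLO. ISG15, a ubiquitin-like modifier, had 5.52, 4.53 and 5.01, then 31.3, 28.1 and 32.5, and 16.04, 14.8 and 16.1. Both carry the ISRE cores printed above, and in both SLO lay between VEH and SLO ½ without overlap. IFIT3 rose by 2.62 in SLO ½ and 1.74 in SLO, and IFIT2 by 3.19 and 2.55. TRIM22, an antiviral ubiquitin ligase, rose by 2.65 and 2.78. Summed over the list, VEH libraries held 288 to 409 TPM, SLO ½ 1396 to 1641 and SLO 601 to 774. VEH replicate 1 was the highest VEH library in this sum (409, against 305 and 288). Of the 9 genes it was also the highest VEH library in IFNAR2, JAK2, TYK2, STAT2, IRF7 and IRF9, and the lowest in IFNAR1 and IRF1. Without it IRF7 rose by 0.66 and IRF9 gave 0.50 (adjusted p = 0.0942) in SLO.

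Target genes of interferon-gamma and IRF1 mostly rose at both doses. Of 20, 13 were tested. In SLO 9 rose and 1 fell, in SLO ½ 11 rose and 1 fell, and between the doses none was higher and 4 were lower in SLO. Among all tested genes 32.9% rose and 32.1% fell in SLO, and 26.7% and 25.3% did in SLO ½. Between the doses 20.8% of them were higher and 20.3% lower in SLO. The medians were 0.97 in both SLO and SLO ½ and −0.11 between the doses. GBP1, an interferon-induced GTPase, had 17.0, 16.5 and 15.2 CPM in VEH, 69.4, 67.1 and 76.2 in SLO ½, and 65.9, 61.5 and 69.3 in SLO, so that the doses overlapped. B2M, the light chain of class I antigen-presenting molecules, rose by 0.97 in SLO ½ and 1.07 in SLO, HLA-E by 0.77 and 0.84, and the peptide transporter TAP1 by 1.18 and 0.97. The chemokine genes CXCL9, CXCL10 and CXCL11 had at most 9 counts in any library. Summed levels were 949 to 1014 TPM in VEH, while SLO ½ held 1575 to 1718 and SLO 1697 to 1816, in which the doses overlapped and VEH stood apart.

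**Figure D5:**
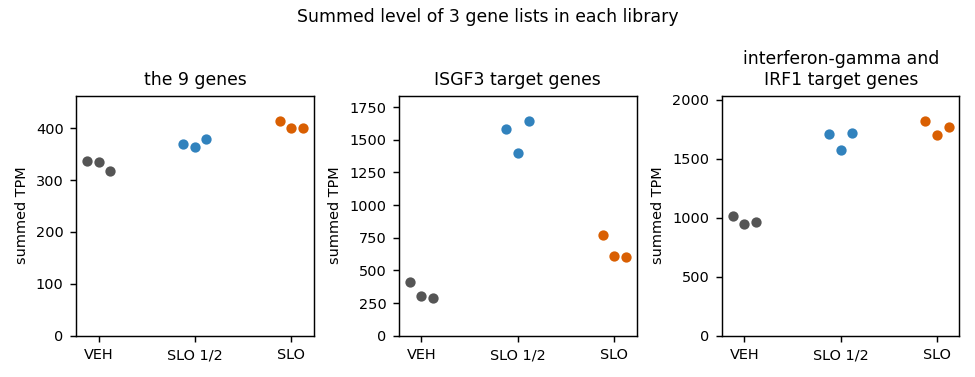
Summed TPM (vertical axes, from 0) of the 9 genes, of 34 ISGF3 target genes and of 20 interferon-gamma and IRF1 target genes in each library. The ISGF3 targets are highest in SLO ½ (1396 to 1641), with 601 to 774 in SLO, whereas the sum of the 9 genes goes up with dose, with 317 to 338 in VEH and 400 to 413 in SLO.

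Other receptors that use the same kinases changed in both directions. Of 14 tested, 8 rose and 4 fell in SLO, and 6 rose and 5 fell in SLO ½. Over all tested genes 32.9% rose and 32.1% fell in SLO, and 26.7% and 25.3% did in SLO ½. IL13RA1 rose by 0.37 in SLO ½ and 0.75 in SLO and IL4R by 0.84 and 1.05, both higher in SLO, and CSF2RB by 1.57 and 1.31. OSMR, the receptor for oncostatin M, fell by 0.48 and 0.71. IL7R moved in opposite directions, with 0.49 in SLO ½ (adjusted p = 3.6e-10), −0.64 in SLO (adjusted p = 2.3e-12) and −1.13 between the doses (adjusted p = 7.2e-17). The median of this list was 0.22 in SLO and 0.10 in SLO ½, below that of the 9 genes at both doses. No test of that difference was made.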

How the data were processed

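Polyadenylated RNA of 9 HMC3 libraries was sequenced by the authors. Reads were trimmed with Trimmomatic 0.38 and aligned to GRCh38 with STAR 2.7.1a, and the counts the authors deposited are whole numbers per gene from STAR, without normalization, in a table labelled as stranded. The deposited TPM values were scaled by the authors for gene length and library size. The annotation release is not given in the sources used here. Of all reads, 7.16% to 8.52% matched several places and 3.03% to 3.26% were ambiguous between genes, and neither entered a gene's count.

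Groups were read from sample titles. Differences between groups were fitted by edgeR 4.0.16 under R 4.3.3 (filterByExpr, TMM, glmQLFit and glmQLFTest, 1 model of 3 groups, prior count 2 for log2 CPM). The fit was tested on simulated data in which few genes changed. That simulation does not cover data in which 64.9% of tested genes were called, as in SLO against VEH. An SE is the fold change divided by the square root of its F statistic. Positions are those of the deposited tables. Exon sharing was computed in GENCODE v44, which holds 93.1% of the identifiers with the same version. Alternatives used DESeq2 1.42.0, other scalings and filters, limma 3.58.1 on log2(TPM + 1) or log2(TPM + 0.1), a replicate block, and each library left out.

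The 9 genes and the lists were chosen with earlier results of these data known, and some genes of the lists are not reported here. Named are the 9 genes, every tested receptor chain, JAK, STAT and IRF gene, from each other list those ranked in the first 4 by p in SLO against VEH or in SLO ½ against VEH, for likeness the 2 nearest genes, and markers at 0 or most abundant. Markers with at most 2 counts, CXCL9 to CXCL11, untested IRF genes and the ligands with counts were named after their values were seen.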

Additional observations from a re-analysis of the deposited data

How the results depend on the processing

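Of 513 log2 fold changes of the 9 genes (171 in each of 3 comparisons, under 19 alternatives), 499 kept their direction and their side of the threshold. The other 14 concerned TYK2, JAK1 and JAK2. With library size alone as scaling, SLO ½ against VEH gave 0.11 for JAK1 (adjusted p = 0.0192), 0.0094 for JAK2 (adjusted p = 0.907), which turned its direction, and 0.19 for TYK2 (adjusted p = 0.01002). This scaling also moved the median of all genes, by 0.050 in SLO ½ and 0.075 in SLO. TYK2 in SLO ½ against VEH passed the threshold as well with at least 10 counts in every library (0.16) and with only the 2 groups compared (0.15), and each library left out gave 0.070 to 0.18. Between the doses TYK2 was 0.20 and not called with limma on unfiltered log2(TPM + 1), and 0.13 to 0.20 with each library left out. The number of the 9 genes called was 8 in SLO under every alternative, 5 to 7 in SLO ½ and 6 or 7 between the doses.

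Groups share replicate numbers in the labels. Deviations of same-numbered libraries correlated by 0.003 to 0.087. Differently numbered libraries were not compared, so these values cannot decide whether the numbers pair the libraries. With the replicate block, TYK2 in SLO ½ against VEH was 0.14 (adjusted p = 0.0438) and thus called, the number of the 9 genes called there was 6, and no other call of the 9 genes changed.

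Pathway genes called numbered 74 in SLO (59 to 76 over the alternatives), 76 in SLO ½ (62 to 79) and 63 between the doses (46 to 65). The shares called among all tested genes were 64.9%, 52.0% and 41.1% in these comparisons, and the number of genes tested changes with the filter. Single lists moved further. Unfiltered TPM left 3 negative regulators (9 in the counts), 1 sensor or adaptor (4) and 6 other receptors (10) called between the doses, 5 sensors or adaptors (8) and 2 JAK and STAT genes (4) in SLO, and 3862 of all genes between the doses (6056). The requirement of at least 10 counts left 2 of 4 JAK and STAT genes in both doses, since it tested fewer genes. IRF9, with 22 to 86 counts a library, is the gene most limited by depth, and its change in SLO against VEH ran from 0.0023 without VEH replicate 3 to 0.50 without VEH replicate 1, in no case called.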
